A study of Homo sapiens with 24 samples.

Results

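Cells of the established ovarian cancer line A2780, which is human and epithelial, were kept in 1% oxygen (hypoxia) or without this treatment (normoxia), and the changes described here are those that hypoxia made in the same direction at every time sampled. Hypoxia lasted 6 hr, 48 hr or 6 days, and each time was set against normoxia of the same time, with 2 total RNA libraries in each of the 6 groups. All cells grew in RPMI medium with fetal bovine serum and gentamicin under 5% CO2, and the labels give no other agent and no genetic change. The results are those of a single cell line, and since the labels name no separate cultures, the p-values reflect only these libraries. The 6 hypoxia libraries were compared with the 6 normoxia libraries with time as a term in the fit, and at each time the 2 hypoxia and 2 normoxia libraries gave 4 pairs, 12 pairs in all. In this fit a hypoxia effect that differed between times counts as spread, beside the spread of libraries within groups. Of 22446 genes in the table, 11933 were tested (at least 1 RPKM, a read density per gene length and library size, in at least 2 libraries). A hypoxia difference of one sign in all 12 pairs was found in 1784 of them (15%), and 1633 of these also passed the test across times at an adjusted p under 0.05. These 1633 genes, 1244 higher and 389 lower in hypoxia, are called shared changes here.

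Cells sense oxygen mainly through the hypoxia-inducible factors (HIF), pairs of an oxygen-controlled alpha subunit and the constant partner ARNT. With oxygen present, prolyl hydroxylases of the EGLN family mark the alpha subunit and the VHL ligase has it destroyed; without oxygen it accumulates as protein, binds DNA at a short core sequence and raises genes of glycolysis, glucose uptake, mitophagy, acid balance, collagen modification and blood vessel growth. Hypoxic tumour cells are also known to slow ribosome production and DNA synthesis. Several HIF targets, EGLN genes among them, act back on the pathway itself.

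The libraries held 25.2 M to 52.0 M reads, as inferred from the whole-read steps of the deposited precursor miRNA values. Within groups, libraries correlated at Pearson r = 0.989 to 0.995 over genes, which are no independent replicates. The normoxia libraries at 6 hr, 1 and 2, differed most (median absolute log2 difference 0.20, against 0.09 to 0.13 in the other groups). The epithelial markers EPCAM (38.1 to 42.2 RPKM in hypoxia, against 33.2 to 40.8 RPKM in normoxia) and KRT18 (23.7 to 38.2 RPKM in hypoxia, against 25.3 to 34.2 RPKM in normoxia) were present in every library, whereas CDH1, PAX8, WT1 and MUC16 stayed under 1 RPKM throughout; 5 of 15 markers of this list were tested, and their sum over the list was 72.2 to 82.1 RPKM in hypoxia and 66.0 to 77.0 RPKM in normoxia. None of 10 endothelial and none of 14 leukocyte markers reached 1 RPKM in 2 libraries. Library 4, hypoxia at 6 hr, stood apart in some markers of other cell types: its haemoglobin gene HBB was at 20.2 RPKM, against 0.0417 to 0.549 RPKM in the other hypoxia libraries and 0.0611 to 0.375 RPKM in normoxia. In the same library the fibroblast collagen COL1A2 was at 3.06 RPKM, against 0.0278 to 0.0784 RPKM in the other hypoxia libraries and 0.0244 to 0.125 RPKM in normoxia. The summed fibroblast list did not stand apart, at 144 RPKM in library 4. It was at 95.8 to 233 RPKM in the other hypoxia libraries and 67.8 to 155 RPKM in normoxia. The summed leukocyte list was at 2.54 RPKM in library 4 and at most 1.43 RPKM in any other library. The part of these markers in the results was not tested. Without library 4 there were 1559 shared higher and 496 shared lower genes over the 10 pairs left, among them 1205 of the 1244 and 357 of the 389. Less RNA per cell and fewer cells of a kind cannot be told apart in these bulk libraries.

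Across the tested genes 1830 (15.3%) were higher and 851 (7.13%) lower in hypoxia over the 3 times. The shared higher genes were 10.4% of the tested genes, and the shared lower genes 3.26%. The other 1048 genes past the threshold broke the sign rule, 605 of them in 1 pair only, and 151 genes with one sign did not pass the test. Of the shared changes 76.2% were higher, but this split depended on scaling: it was 50.6% with quantile normalization, where 910 genes were lower, and 55.4% with libraries centred on a trimmed mean, where 817 were lower. Under these scalings 892 and 987 of the 1244 higher genes, and 365 and 376 of the 389 lower genes, kept their call and their sign. The count of lower shared genes was 1002 without normoxia library 2 (6 hr) and 601 without hypoxia library 3 (6 hr), where 10 pairs set the sign rule in place of 12. The 851 lower genes across times became 1370 without normoxia library 2 (6 hr), 528 without hypoxia library 7 (48 hr), 475 and 474 without normoxia libraries 9 and 10, and 444 and 480 without hypoxia libraries 11 and 12, all 4 of 6 days. Whole times mattered more: shared higher and lower genes numbered 2079 and 1555 without 6 hr, 809 and 115 without 48 hr, and 874 and 183 without 6 days.

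**Figure D1:**
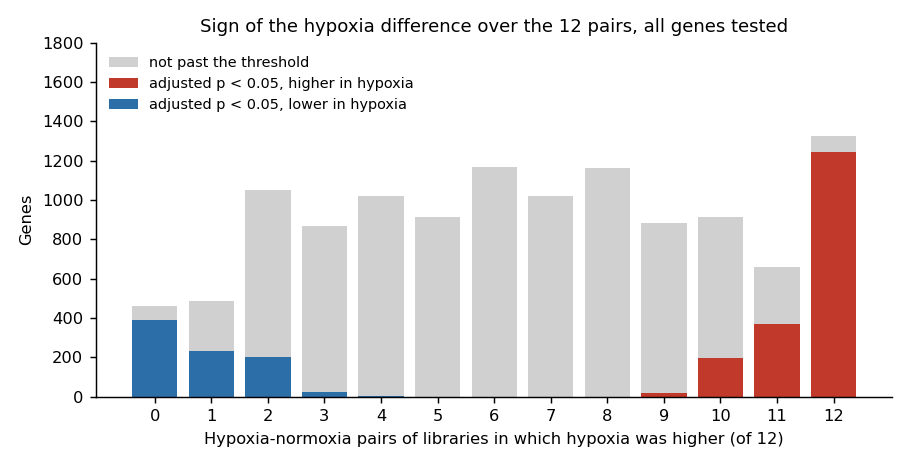
Number of the 11933 tested genes (y axis) by how many of the 12 hypoxia-normoxia pairs were higher in hypoxia (x axis); coloured parts passed the test across times. The outer bars hold 1324 genes that were higher and 460 that were lower in all 12 pairs, of which 1244 and 389 passed.

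The higher shared changes were larger than the lower ones. Their median log2 fold change was 0.50, a 1.42-fold rise, against a median of 0.03 over all tested genes; 202 rose at least 2-fold and 25 at least 4-fold. The lower genes had a median of -0.30, a 1.23-fold fall, and none fell 2-fold. The higher genes were less abundant than the lower ones: their median level was 5.89 RPKM in hypoxia and 3.68 RPKM in normoxia, that of the lower genes 6.94 RPKM in hypoxia and 8.81 RPKM in normoxia, and that of all tested genes 6.21 RPKM in hypoxia and 5.95 RPKM in normoxia. Fold changes are on the log2(RPKM + 0.5) scale, which understates those of genes with little RNA, and members were chosen on these same values.

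Where the hypoxia mean reached 2 RPKM, the 12 largest rises were in PFKFB4, ANGPTL4, PPFIA4, BNIP3L, ALDOC, RIMKLA, DPYSL4, BNIP3, CA9, ANKRD37, PPP1R3C and RAB20. PFKFB4, an enzyme that makes the sugar phosphate activating phosphofructokinase, had 18.9 and 15.9 RPKM at 6 hr, 21.3 and 19.8 at 48 hr and 20.8 and 20.7 at 6 days in hypoxia, against 1.16 and 1.24, 1.07 and 1.10, and 2.80 and 2.98 RPKM at these times in normoxia. It rose 9.55-fold (log2 3.26 ± 0.14 SE, adjusted p = 1.31e-08), and its hypoxia libraries stood far above all 6 normoxia libraries, which themselves were higher at 6 days. PPFIA4, a liprin scaffold protein, had 7.04 and 6.29 RPKM at 6 hr, 7.54 and 6.9997 at 48 hr and 8.27 and 9.07 at 6 days in hypoxia, against 0.440 and 0.470, 0.487 and 0.420, and 1.05 and 0.812 RPKM at these times in normoxia. Its rise of 7.32-fold (log2 2.87 ± 0.08 SE, adjusted p = 1.95e-10) had log2 values of 2.91, 3.03 and 2.68 at 6 hr, 48 hr and 6 days, the order in which sets of 3 log2 values are given throughout, and a difference between times was not detected (adjusted p = 0.269, moderated F test). ANGPTL4, whose secreted product inhibits lipoprotein lipase, rose 7.40-fold (log2 2.89 ± 0.08 SE, adjusted p = 2.25e-10). RIMKLA, a synthetase of the neuropeptide N-acetylaspartylglutamate, had 2.95 to 8.73 RPKM in hypoxia (median 5.51), against 0.203 to 0.742 RPKM in normoxia (median 0.370), a rise of 6.15-fold (log2 2.62 ± 0.11 SE, adjusted p = 8.16e-09). The cytoskeletal protein gene DPYSL4 had 3.06 to 11.2 RPKM in hypoxia (median 9.47), against 0.591 to 1.11 RPKM in normoxia (median 0.802), a rise of 5.81-fold (log2 2.54 ± 0.17 SE, adjusted p = 5.08e-07). RAB20, a small GTPase of endosomes, was nearly silent in normoxia: it had 1.84 to 4.15 RPKM in hypoxia (median 2.87), against 0.0639 to 0.200 RPKM in normoxia (median 0.152). It rose 5.16-fold (log2 2.37 ± 0.12 SE, adjusted p = 5.04e-08). RAB20, RIMKLA and, below, CA9, LOX, S100A10, HBA2 and INHA had under 1 RPKM in every normoxia library. Such genes were tested only through the hypoxia libraries, where they are high, so their calls are not independent of the filter. Of the 12 genes only ALDOC had overlapping ranges over all times. Within each time every shared higher gene is higher in both hypoxia libraries by the sign rule.

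**Figure D2:**
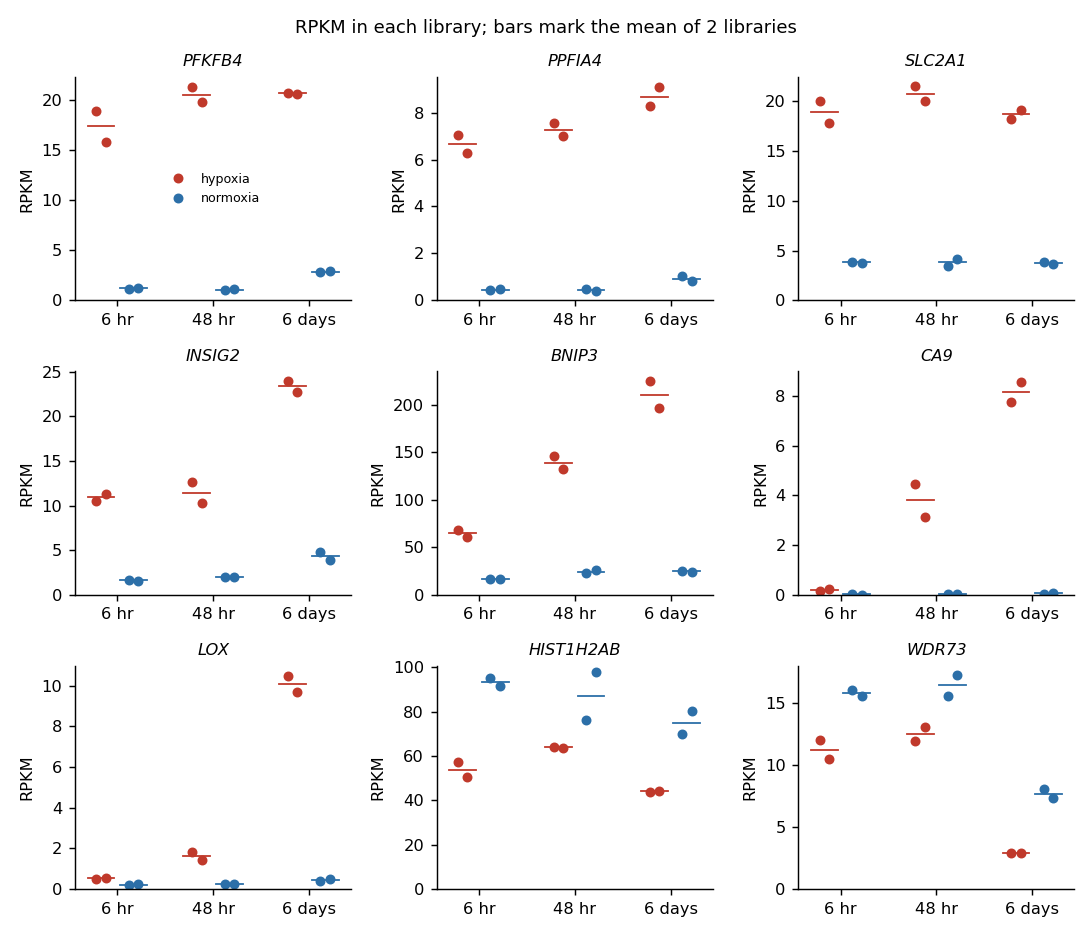
RPKM (y axis, from 0) of 9 genes in each of the 12 libraries at 6 hr, 48 hr and 6 days, hypoxia left of normoxia at each time, with the mean of the 2 libraries as a bar. PFKFB4, PPFIA4, SLC2A1, INSIG2 and BNIP3 were high from 6 hr on, CA9 and LOX climbed with time, and HIST1H2AB and WDR73 were lower in hypoxia at every time, as the sign rule requires.

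Promoters of the 5 largest rises with a window in the table are shown because the core that HIF binds, ACGTG or GCGTG on either strand, can be looked for in them. BNIP3 is added for its many matches, and HIST1H2AD as the largest fall with a window. The windows run from 250 bases before to 50 after the start of the gene, 5′ to 3′ on the gene's strand, from RefSeq on GRCh38.p14, with each match in capitals. They are PFKFB4 (chr3:48556754-48557053, minus strand), ANGPTL4 (chr19:8363905-8364204, plus strand), PPFIA4 (chr1:203026241-203026540, plus strand), ALDOC (chr17:28576846-28577145, minus strand), RIMKLA (chr1:42380542-42380841, plus strand), BNIP3 (chr10:131981874-131982173, minus strand) and HIST1H2AD (chr6:26199244-26199543, minus strand).
PFKFB4: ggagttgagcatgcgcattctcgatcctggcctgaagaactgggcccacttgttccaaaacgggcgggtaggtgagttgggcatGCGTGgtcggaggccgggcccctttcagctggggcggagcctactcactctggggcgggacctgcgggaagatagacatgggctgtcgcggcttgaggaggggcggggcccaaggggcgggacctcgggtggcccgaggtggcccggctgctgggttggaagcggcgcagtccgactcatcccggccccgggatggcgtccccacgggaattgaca
ANGPTL4: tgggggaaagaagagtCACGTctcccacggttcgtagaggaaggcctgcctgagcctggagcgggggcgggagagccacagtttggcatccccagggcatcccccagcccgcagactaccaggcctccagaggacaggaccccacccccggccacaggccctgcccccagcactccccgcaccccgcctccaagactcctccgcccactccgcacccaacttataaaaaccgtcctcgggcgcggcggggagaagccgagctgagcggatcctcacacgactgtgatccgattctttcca
PPFIA4: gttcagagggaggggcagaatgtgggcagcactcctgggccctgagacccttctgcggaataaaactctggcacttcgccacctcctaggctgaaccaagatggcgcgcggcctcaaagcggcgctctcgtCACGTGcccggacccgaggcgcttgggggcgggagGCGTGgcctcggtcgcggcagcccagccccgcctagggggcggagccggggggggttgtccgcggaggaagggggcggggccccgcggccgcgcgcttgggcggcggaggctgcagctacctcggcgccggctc
ALDOC: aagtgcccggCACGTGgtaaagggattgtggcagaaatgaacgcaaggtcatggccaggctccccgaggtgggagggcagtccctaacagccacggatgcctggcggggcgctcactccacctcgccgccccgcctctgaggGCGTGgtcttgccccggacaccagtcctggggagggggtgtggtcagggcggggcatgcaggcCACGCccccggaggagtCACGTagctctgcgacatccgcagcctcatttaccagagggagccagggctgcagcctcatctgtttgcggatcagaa
RIMKLA: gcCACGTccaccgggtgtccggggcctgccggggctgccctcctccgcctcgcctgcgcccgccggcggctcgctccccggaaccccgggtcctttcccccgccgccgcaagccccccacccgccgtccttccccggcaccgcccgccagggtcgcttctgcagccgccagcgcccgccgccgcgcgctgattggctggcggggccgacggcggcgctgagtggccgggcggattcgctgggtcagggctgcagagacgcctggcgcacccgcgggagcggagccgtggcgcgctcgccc
BNIP3: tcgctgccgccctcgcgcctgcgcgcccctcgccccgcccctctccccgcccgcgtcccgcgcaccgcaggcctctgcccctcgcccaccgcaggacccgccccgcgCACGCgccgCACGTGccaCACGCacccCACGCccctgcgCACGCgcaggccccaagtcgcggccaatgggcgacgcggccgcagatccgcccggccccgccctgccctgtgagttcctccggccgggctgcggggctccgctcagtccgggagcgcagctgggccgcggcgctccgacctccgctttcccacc
HIST1H2AD: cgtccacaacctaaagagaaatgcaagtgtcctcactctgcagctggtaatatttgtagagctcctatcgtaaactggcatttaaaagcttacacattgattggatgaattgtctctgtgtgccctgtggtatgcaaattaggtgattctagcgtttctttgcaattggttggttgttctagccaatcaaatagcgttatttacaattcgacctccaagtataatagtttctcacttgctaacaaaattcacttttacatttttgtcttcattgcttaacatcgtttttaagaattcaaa
PFKFB4, ANGPTL4 and RIMKLA held 1 match each, PPFIA4 held 3 and ALDOC 5. BNIP3 held 6 between -143 and -104 bases of its start, counting both strands of one CACGTG, the most among the 20 highest shared genes looked at, of which 3 held none. Of the 6 lowest genes looked at 5 held none, HIST1H2AD among them, and WDR4 held 2. Such matches were common: 67.3% of the 956 shared higher genes with a promoter in the table held at least 1, as did 68.2% of the 148 that rose at least 2-fold, 65.6% of the 314 shared lower genes and 65.1% of all 9013 tested genes with a promoter. ACGTG alone was in 34.7% of the higher genes, 39.2% of those that rose at least 2-fold, 26.4% of the lower genes and 27.6% of all. These shares are a description, not a test, and a match is not a binding site.

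Of 12 tested genes of the oxygen-sensing list 5 were shared higher genes and none was shared lower, against 10.4% and 3.26% of all tested genes. The other 7 held both HIF subunit genes tested, HIF1A and ARNT, and regulators such as VHL. HIF1A, whose protein is the usual alpha subunit, had 13.3 to 19.8 RPKM in hypoxia (median 16.1), against 13.9 to 23.8 RPKM in normoxia (median 19.8); the ranges overlapped and 3 of 12 pairs were higher in hypoxia (log2 -0.17 ± 0.12 SE, adjusted p = 0.294). ARNT was at 13.7 to 20.1 RPKM in hypoxia, against 13.1 to 19.8 RPKM in normoxia (log2 0.01 ± 0.05 SE, adjusted p = 0.935), with a sign that turned under both other scalings and without normoxia library 2. VHL was called lower, at 4.04 to 6.79 RPKM in hypoxia, against 5.26 to 8.403 RPKM in normoxia (log2 -0.33 ± 0.11 SE, adjusted p = 0.0409), but 2 of 12 pairs went the other way. Its call was lost without any one of 8 libraries, with adjusted p of 0.0604 to 0.103, and for whole times it had adjusted p = 0.0808 without the 48 hr libraries and 0.398 without the 6 days libraries. EGLN1, the main prolyl hydroxylase acting on HIF, had 17.5 and 17.6 RPKM at 6 hr, 21.8 and 18.8 at 48 hr and 29.5 and 27.0 at 6 days in hypoxia, against 7.66 and 5.78, 7.56 and 7.31, and 6.77 and 6.72 RPKM at these times in normoxia. It rose 2.97-fold (log2 1.57 ± 0.11 SE, adjusted p = 8.03e-07), and every hypoxia library lay far above every normoxia library. SIAH2, a ligase that removes prolyl hydroxylases, rose 1.70-fold (log2 0.77 ± 0.07 SE, adjusted p = 1.15e-05). ANKRD37, an ankyrin repeat protein, had 3.10 to 12.7 RPKM in hypoxia (median 4.37), against 0.263 to 1.47 RPKM in normoxia (median 0.588), a rise of 5.56-fold (log2 2.47 ± 0.17 SE, adjusted p = 9.03e-07). The list also counts INHA, an inhibin subunit rather than an oxygen sensor. It rose 1.60-fold (log2 0.68 ± 0.13 SE, adjusted p = 0.00261) at low levels, 0.255 to 2.25 RPKM in hypoxia, against 0 to 0.969 RPKM in normoxia.

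EPAS1, the other alpha subunit, and EGLN3, an inducible prolyl hydroxylase, were below the level for the test across genes. EPAS1 had 0.0959 to 0.639 RPKM in hypoxia and 0.0618 to 0.153 RPKM in normoxia, higher in 11 of 12 pairs. An exact permutation test within times, two-sided, gave p = 0.0185. EGLN3 had 0.206 to 0.745 RPKM in hypoxia and 0.0121 to 0.163 RPKM in normoxia, higher in 12 of 12 pairs, and its exact permutation p of 0.00926 is the smallest this design can give. Adjusted over these 2 exact tests, both p values were 0.0185.

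Glucose uptake and glycolysis was the list most fully shared: 19 of 23 tested genes were shared higher genes and 1, PFKFB2, was lower, with a median log2 fold change of 1.10. Of all tested genes 10.4% were shared higher and 3.26% shared lower. SLC2A1, the basal glucose transporter GLUT1, had 20.03 and 17.8 RPKM at 6 hr, 21.5 and 19.99 at 48 hr and 18.2 and 19.1 at 6 days in hypoxia, against 3.82 and 3.80, 3.48 and 4.15, and 3.89 and 3.61 RPKM at these times in normoxia. It rose 4.64-fold (log2 2.22 ± 0.06 SE, adjusted p = 1.95e-10), with log2 values of 2.17, 2.30 and 2.17 at the 3 times. ALDOC, a brain-type aldolase, had 8.67 and 8.18 RPKM at 6 hr, 31.2 and 27.5 at 48 hr and 41.8 and 38.1 at 6 days in hypoxia, against 1.44 and 1.02, 2.02 and 1.84, and 7.80 and 9.58 RPKM at these times in normoxia. The normoxia level itself rose at 6 days, and the change of 6.56-fold (log2 2.71 ± 0.20 SE, adjusted p = 1.13e-06) was largest at 48 hr (log2 2.38, 3.62 and 2.14). The enolase ENO2 had 23.9 to 102 RPKM in hypoxia (median 48.4), against 8.85 to 16.95 RPKM in normoxia (median 9.42), a rise of 4.25-fold (log2 2.09 ± 0.16 SE, adjusted p = 1.45e-06). LDHA, which turns pyruvate into lactate, was among the most abundant: it had 368 to 598 RPKM in hypoxia (median 460.1), against 113 to 265 RPKM in normoxia (median 254). It rose 2.27-fold (log2 1.18 ± 0.17 SE, adjusted p = 0.000382). Over the list the median log2 change was 0.62 at 6 hr, 1.16 at 48 hr and 1.56 at 6 days, and 15 of the 23 genes differed in size between times.

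**Figure D3:**
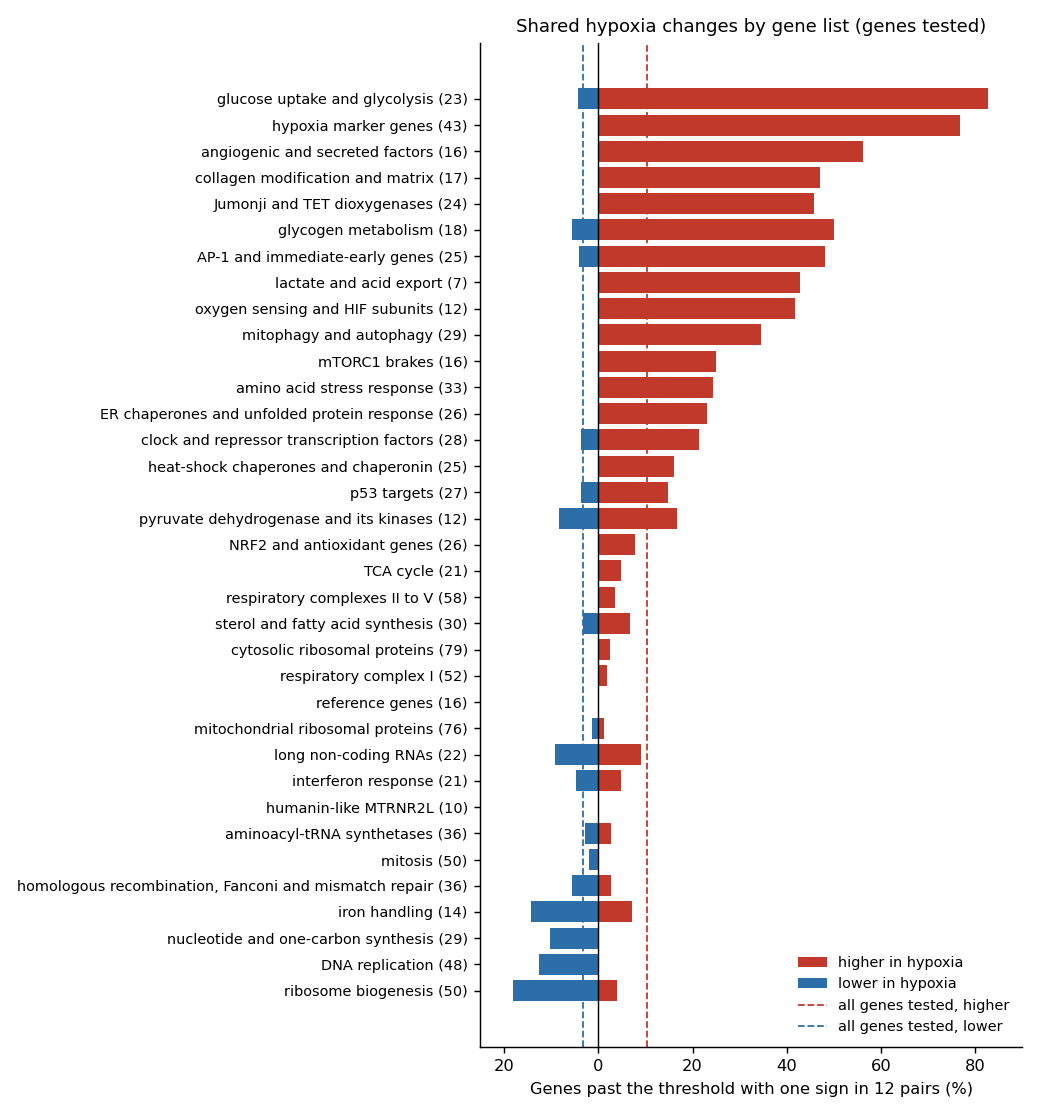
Share of each list's tested genes (number in brackets) that passed the threshold with one sign in all 12 pairs, higher in hypoxia to the right and lower to the left, as a percentage on the x axis; dashed lines mark the 10.4% and 3.26% of all tested genes. Glycolysis, marker, secreted, matrix and dioxygenase lists lie far right of the line, and ribosome biogenesis reaches furthest left.

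Among the genes that handle pyruvate and acid, kinases, a lactate carrier and surface anhydrases rose. PDK1 and PDK3, kinases that switch off pyruvate dehydrogenase, rose 3.71-fold (log2 1.89 ± 0.09 SE, adjusted p = 5.39e-08) and 2.81-fold (log2 1.49 ± 0.13 SE, adjusted p = 7.67e-06); 2 of 12 tested genes of that list were shared higher and 1 shared lower, shares not far from those of all genes. PDK1 had 11.1 to 32.0 RPKM in hypoxia (median 18.97), against 3.19 to 8.70 RPKM in normoxia (median 3.58). SLC16A3, the lactate exporter MCT4, had 17.5 to 40.9 RPKM in hypoxia (median 27.2), against 6.26 to 8.25 RPKM in normoxia (median 7.35), a rise of 3.59-fold (log2 1.84 ± 0.11 SE, adjusted p = 2.82e-07). CA9, a surface carbonic anhydrase, had 0.151 and 0.217 RPKM at 6 hr, 4.48 and 3.13 at 48 hr and 7.75 and 8.57 at 6 days in hypoxia, against 0.0248 and 0, 0.0158 and 0.0139, and 0.0431 and 0.0638 RPKM at these times in normoxia. Its RNA was near nil in normoxia and only slightly above it at 6 hr, so the rise of 5.56-fold (log2 2.48 ± 0.43 SE, adjusted p = 0.00162) joins log2 values of 0.42, 3.05 and 3.97. CA12, a related enzyme, rose by less, 1.23-fold (log2 0.30 ± 0.07 SE, adjusted p = 0.00995), and this call was lost with adjusted p = 0.0789 without the 48 hr libraries and 0.115 without the 6 days libraries. In the acid export list 3 of 7 tested genes were shared higher genes, against 10.4% of all tested genes.

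Of 18 tested genes of glycogen metabolism 9 were shared higher and 1 was shared lower, against 10.4% and 3.26% of all tested genes. PPP1R3C, which brings protein phosphatase to glycogen, had 9.06 and 7.94 RPKM at 6 hr, 9.61 and 8.26 at 48 hr and 36.9 and 33.9 at 6 days in hypoxia, against 2.04 and 2.08, 1.89 and 1.49, and 2.63 and 3.47 RPKM at these times in normoxia. It rose 5.36-fold (log2 2.42 ± 0.20 SE, adjusted p = 3.7e-06). The related subunit PPP1R3B rose 2.08-fold (log2 1.06 ± 0.06 SE, adjusted p = 2.26e-07). GBE1, the branching enzyme, had 12.7 to 30.1 RPKM in hypoxia (median 23.4), against 4.61 to 10.6 RPKM in normoxia (median 8.23). It rose 2.77-fold (log2 1.47 ± 0.24 SE, adjusted p = 0.0011). GYS1, glycogen synthase, rose 2.25-fold (log2 1.17 ± 0.12 SE, adjusted p = 2.84e-05). The starch-binding protein gene STBD1, which ties glycogen to membranes, rose 3.18-fold (log2 1.67 ± 0.10 SE, adjusted p = 2.37e-07). PYGL, a phosphorylase that breaks glycogen down, rose 1.501-fold (log2 0.59 ± 0.06 SE, adjusted p = 4.15e-05). The lower gene was GYG1, whose product primes glycogen synthesis: it fell 1.34-fold (log2 -0.43 ± 0.08 SE, adjusted p = 0.003), with adjusted p = 0.0651 without the 48 hr libraries. PYGL and GYG1 were picked out after their values were seen.

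Mitophagy receptors were among the strongest members. BNIP3 had 68.1 and 61.3 RPKM at 6 hr, 146 and 133 at 48 hr and 225 and 197 at 6 days in hypoxia, against 16.3 and 16.4, 22.4 and 25.8, and 25.2 and 23.7 RPKM at these times in normoxia. It rose 5.70-fold (log2 2.51 ± 0.15 SE, adjusted p = 1.81e-07) and its hypoxia level was higher at each later time, while normoxia stayed under 26 RPKM. BNIP3L, its close relative NIX, had 14.1 to 81.0 RPKM in hypoxia (median 34.1), against 2.77 to 12.4 RPKM in normoxia (median 3.05). It rose 6.65-fold (log2 2.73 ± 0.15 SE, adjusted p = 1.55e-07). Of 29 tested mitophagy and autophagy genes 10 were shared higher genes and none lower, against 10.4% and 3.26% of all tested genes. The list median was 0.19. The lipid scramblase ATG9A rose 1.77-fold (log2 0.82 ± 0.08 SE, adjusted p = 1.1e-05) and the ATG8-type protein GABARAPL1 1.69-fold (log2 0.76 ± 0.11 SE, adjusted p = 0.000414).

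Oxygen-using dioxygenases followed. Of 24 tested Jumonji and TET genes 11 were shared higher genes and none was shared lower, with a median log2 fold change of 0.35. Among all tested genes 10.4% were shared higher and 3.26% shared lower. KDM3A, a histone demethylase, had 18.4 and 16.3 RPKM at 6 hr, 21.4 and 19.9 at 48 hr and 48.2 and 45.1 at 6 days in hypoxia, against 7.96 and 5.42, 6.80 and 6.604, and 9.70 and 10.9 RPKM at these times in normoxia. It rose 3.19-fold (log2 1.67 ± 0.12 SE, adjusted p = 1.42e-06). KDM4B rose 2.79-fold (log2 1.48 ± 0.08 SE, adjusted p = 1.63e-07), JHDM1D, now called KDM7A, 2.01-fold (log2 1.01 ± 0.07 SE, adjusted p = 1.13e-06), and TET1, which oxidises methylated cytosine, 2.04-fold (log2 1.03 ± 0.07 SE, adjusted p = 9.91e-07). The collagen and matrix list had 8 of 17 tested genes shared higher and none lower, against the same shares of all tested genes. PLOD2, a lysyl hydroxylase of collagen, had 14.7 to 56.5 RPKM in hypoxia (median 28.0), against 5.22 to 8.75 RPKM in normoxia (median 5.70). It rose 4.45-fold (log2 2.15 ± 0.16 SE, adjusted p = 1.31e-06), and the prolyl hydroxylase subunit P4HA2 rose 3.43-fold (log2 1.78 ± 0.16 SE, adjusted p = 9.91e-06). LOX, the enzyme that cross-links collagen, had 0.509 and 0.556 RPKM at 6 hr, 1.82 and 1.40 at 48 hr and 10.5 and 9.70 at 6 days in hypoxia, against 0.177 and 0.235, 0.223 and 0.228, and 0.402 and 0.507 RPKM at these times in normoxia. Its rise of 3.61-fold (log2 1.85 ± 0.35 SE, adjusted p = 0.00268) covers log2 values of 0.55, 1.53 and 3.47. LOXL2 rose 3.18-fold (log2 1.67 ± 0.21 SE, adjusted p = 0.000115).

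Of 16 tested genes for secreted factors 9 were shared higher and none was lower, against 10.4% and 3.26% of all tested genes. ADM, the vasodilator adrenomedullin, had 13.4 and 12.9 RPKM at 6 hr, 15.0 and 12.6 at 48 hr and 27.8 and 25.4 at 6 days in hypoxia, against 2.80 and 2.93, 2.82 and 2.99, and 2.68 and 3.49 RPKM at these times in normoxia. It rose 5.06-fold (log2 2.34 ± 0.13 SE, adjusted p = 1.81e-07). VEGFA, the main blood vessel growth factor, had 10.2 to 23.4 RPKM in hypoxia (median 12.7), against 5.26 to 9.85 RPKM in normoxia (median 6.80); its rise of 1.94-fold (log2 0.96 ± 0.08 SE, adjusted p = 3.24e-06) was smaller, but the lowest hypoxia library was still above the highest normoxia library. STC2, a stanniocalcin, rose 4.05-fold (log2 2.02 ± 0.10 SE, adjusted p = 4.43e-08). NPPB, the B-type natriuretic peptide, was listed at 0 in 4 of 6 normoxia libraries and had 13.7 and 11.1 RPKM in hypoxia at 6 days, 2.42 and 1.58 RPKM at 48 hr and 0.0747 and 0.121 RPKM at 6 hr. Its call (adjusted p = 0.00722) was lost with adjusted p = 0.0735 without the 48 hr libraries, and its fitted change depends on the 0.5 RPKM added.

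The wider list of hypoxia marker genes had 33 of 43 tested genes shared higher and none lower, at a median log2 fold change of 1.11. All tested genes had 10.4% shared higher and 3.26% shared lower. In lists of this size or smaller, no shared lower gene is little different from that lower share. INSIG2, which restrains sterol synthesis from the endoplasmic reticulum, had 10.5 and 11.3 RPKM at 6 hr, 12.6 and 10.3 at 48 hr and 23.9 and 22.8 at 6 days in hypoxia, against 1.63 and 1.59, 2.02 and 1.93, and 4.76 and 3.87 RPKM at these times in normoxia. It rose 5.06-fold (log2 2.34 ± 0.07 SE, adjusted p = 2.25e-10), with log2 values of 2.44, 2.26 and 2.31. C7orf68, now called HILPDA, a lipid droplet protein, rose 2.73-fold (log2 1.45 ± 0.15 SE, adjusted p = 1.97e-05). NDRG1, a stress-induced protein often used as a hypoxia marker, was slight until 6 days, at log2 values of 0.19, 0.76 and 2.65. Over all times it rose 2.30-fold (log2 1.20 ± 0.31 SE, adjusted p = 0.0147), but adjusted p = 0.0658 without the 48 hr libraries. VLDLR, a lipoprotein receptor that is not on this list, had 1.81 to 21.3 RPKM in hypoxia (median 5.19), against 0.186 to 3.77 RPKM in normoxia (median 0.373). It rose 4.88-fold (log2 2.29 ± 0.13 SE, adjusted p = 1.81e-07). The lists chosen here were written with earlier results of these data known, so their counts are not independent evidence.

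Stress and transcription factor lists are read here against the 10.4% of all tested genes that were shared higher and the 3.26% that were shared lower. MXI1, an antagonist of MYC, rose 3.40-fold (log2 1.77 ± 0.09 SE, adjusted p = 5.04e-08), NFIL3 2.24-fold (log2 1.17 ± 0.13 SE, adjusted p = 4.11e-05) and the clock repressor BHLHE40 1.998-fold (log2 1.00 ± 0.07 SE, adjusted p = 1.3e-06); 6 of 28 tested genes of the clock and repressor list were shared higher and 1 lower. Of 25 tested immediate-early genes 12 were shared higher and 1 lower, led by genes of AP-1 type factors: FOSL2 rose 3.30-fold (log2 1.72 ± 0.17 SE, adjusted p = 1.6e-05), ATF3 2.35-fold (log2 1.23 ± 0.15 SE, adjusted p = 8.86e-05) and JUN 2.31-fold (log2 1.21 ± 0.13 SE, adjusted p = 2.65e-05). JUN had 7.73 to 18.9 RPKM in hypoxia (median 16.4), against 2.40 to 10.8 RPKM in normoxia (median 5.51). The phosphatase gene DUSP5 rose 2.06-fold (log2 1.04 ± 0.13 SE, adjusted p = 0.000133). DDIT4, which restrains the growth kinase mTORC1, had 74.0 and 63.2 RPKM at 6 hr, 116 and 105 at 48 hr and 224 and 201 at 6 days in hypoxia, against 18.2 and 15.3, 19.3 and 18.3, and 149 and 152 RPKM at these times in normoxia. Its rise of 3.19-fold (log2 1.67 ± 0.25 SE, adjusted p = 0.000548) was smallest at 6 days (log2 2.003, 2.52 and 0.49), when normoxia cells also held much of it. The sestrins SESN1 and SESN2 rose 1.74-fold (log2 0.80 ± 0.09 SE, adjusted p = 3.95e-05) and 1.64-fold (log2 0.71 ± 0.15 SE, adjusted p = 0.00534), and mTORC1 brakes had 4 of 16 tested genes shared higher and none lower. CDKN1A, the cell cycle inhibitor p21, had 1.22 to 3.92 RPKM in hypoxia (median 2.64), against 0.539 to 1.01 RPKM in normoxia (median 0.771). It rose 2.27-fold (log2 1.18 ± 0.17 SE, adjusted p = 0.000438), while AEN, a nuclease induced by p53, fell 1.38-fold (log2 -0.47 ± 0.07 SE, adjusted p = 0.000343). Those were members of the p53 list, with 4 of 27 tested genes shared higher and 1 lower, and a median log2 change of 0.04 that was -0.04 after quantile normalization. Of 33 tested amino acid stress genes 8 were shared higher and none lower, at a list median of 0.12 (0.07, 0.38 and -0.09 by time). Among the 8, ATF3, DDIT4, SESN2, STC2 and VEGFA also stood in other lists, and STBD1 and VLDLR were counted here. Under quantile and trimmed-mean scaling 8 were still shared higher, and 2 and 1 were shared lower.

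Of 26 tested genes of the endoplasmic reticulum list 6 were shared higher, against 10.4% of all tested genes, led by ERO1L, which reoxidises disulfide-forming enzymes and had 21.6 to 61.4 RPKM in hypoxia (median 28.5), against 13.6 to 16.4 RPKM in normoxia (median 15.7). It rose 2.14-fold (log2 1.10 ± 0.18 SE, adjusted p = 0.00113). EDEM1 rose 1.32-fold (log2 0.40 ± 0.06 SE, adjusted p = 0.000751), and PDIA3 1.39-fold (log2 0.47 ± 0.11 SE, adjusted p = 0.00865), the last with adjusted p = 0.0582 without the 48 hr libraries and 0.0699 without the 6 days libraries. Under quantile and trimmed-mean scaling only 3 genes of the list were shared higher, where 931 and 1014 of all tested genes were. Under quantile scaling 1 gene of the list was shared lower. Of 25 heat-shock genes 4 were shared higher, against the same 10.4% of all tested genes, with a list median near 0. Under both other scalings 3 were shared higher, and under quantile scaling 3 were shared lower. HSPA1A rose 1.51-fold (log2 0.60 ± 0.13 SE, adjusted p = 0.00517) and DNAJB1 1.501-fold (log2 0.59 ± 0.13 SE, adjusted p = 0.00772). Reads of HSPA1A and its near-identical copy HSPA1B may be split between them. HMOX1, which breaks down haem, had 7.51 and 6.58 RPKM at 6 hr, 21.0 and 18.0 at 48 hr and 27.1 and 23.3 at 6 days in hypoxia, against 5.81 and 4.72, 5.59 and 5.84, and 3.27 and 4.12 RPKM at these times in normoxia. It rose 2.96-fold (log2 1.56 ± 0.27 SE, adjusted p = 0.00141). In iron handling 1 of 14 tested genes was shared higher and 2 lower, and STEAP3, an iron reductase, fell 1.39-fold (log2 -0.48 ± 0.09 SE, adjusted p = 0.00333) but with adjusted p = 0.0917 without the 48 hr libraries.

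Among long non-coding RNAs, 2 of 22 tested genes were shared higher and 2 lower, against 10.4% and 3.26% of all tested genes. The higher share was near that of all genes, so H19 and NEAT1 are described as single genes. H19, an imprinted RNA, had 7.61 and 6.40 RPKM at 6 hr, 14.2 and 12.4 at 48 hr and 12.5 and 13.3 at 6 days in hypoxia, against 4.49 and 4.68, 3.23 and 3.57, and 1.83 and 2.47 RPKM at these times in normoxia. It rose 2.98-fold (log2 1.58 ± 0.22 SE, adjusted p = 0.000339), and its normoxia level was lowest at 6 days. NEAT1, the scaffold RNA of paraspeckles, had 23.2 and 25.8 RPKM at 6 hr, 29.8 and 29.0 at 48 hr and 43.1 and 47.4 at 6 days in hypoxia, against 11.7 and 14.4, 10.5 and 10.1, and 41.4 and 41.2 RPKM at these times in normoxia. It rose 1.78-fold (log2 0.83 ± 0.17 SE, adjusted p = 0.00393), but the 6-day libraries of hypoxia and normoxia lay close together (log2 0.89, 1.47 and 0.13) and adjusted p = 0.0771 without the 48 hr libraries. SNHG3, a snoRNA host gene, fell 1.24-fold (log2 -0.30 ± 0.06 SE, adjusted p = 0.0023), with adjusted p = 0.0582 without the 48 hr libraries.

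The lower shared changes were small. Of 63 tested genes with a HIST symbol, a group formed after the values were seen, 7 were shared lower and none was higher, or 6 of 60 with identical values counted once, against 3.26% of all tested genes. Their median log2 fold change was -0.31 (-0.01, -0.14 and -0.76 by time), against 0.03 over all tested genes. HIST1H2AD, an H2A histone gene, had 52.5 and 66.4 RPKM at 6 hr, 66.1 and 63.3 at 48 hr and 94.99 and 108 at 6 days in hypoxia, against 91.6 and 91.4, 74.7 and 88.0, and 236 and 256 RPKM at these times in normoxia. It fell 1.67-fold (log2 -0.74 ± 0.14 SE, adjusted p = 0.0023). HIST1H2AB had 57.1 and 50.5 RPKM at 6 hr, 64.1 and 63.8 at 48 hr and 43.6 and 44.4 at 6 days in hypoxia, against 94.98 and 91.4, 76.0 and 98.0, and 69.8 and 80.1 RPKM at these times in normoxia. It fell 1.58-fold (log2 -0.66 ± 0.09 SE, adjusted p = 0.000204). Histone genes have near-identical copies, so the share of reads each received is uncertain; HIST2H3A and HIST2H3C had the same value in every library and fell 1.51-fold (log2 -0.59 ± 0.15 SE, adjusted p = 0.0143), with adjusted p = 0.184 without the 6 days libraries. WDR73 had 11.98 and 10.5 RPKM at 6 hr, 11.97 and 13.1 at 48 hr and 2.90 and 2.89 at 6 days in hypoxia, against 16.1 and 15.6, 15.6 and 17.3, and 8.03 and 7.36 RPKM at these times in normoxia. It fell 1.64-fold (log2 -0.71 ± 0.13 SE, adjusted p = 0.00177). WDR4, the partner subunit of a tRNA methyltransferase, had 2.63 to 13.1 RPKM in hypoxia (median 11.5), against 7.36 to 18.0 RPKM in normoxia (median 14.2). It fell 1.57-fold (log2 -0.65 ± 0.15 SE, adjusted p = 0.0072). MRAP2, an accessory protein of melanocortin receptors, fell 1.55-fold (log2 -0.63 ± 0.11 SE, adjusted p = 0.00177). ZNRD1, now called POLR1H, a subunit of RNA polymerase I, fell 1.51-fold (log2 -0.59 ± 0.11 SE, adjusted p = 0.00258). ELOVL6, a fatty acid elongase, fell 1.49-fold (log2 -0.58 ± 0.14 SE, adjusted p = 0.0106), with adjusted p = 0.0542 without the 48 hr libraries and 0.0847 without the 6 days libraries.

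**Figure D4:**
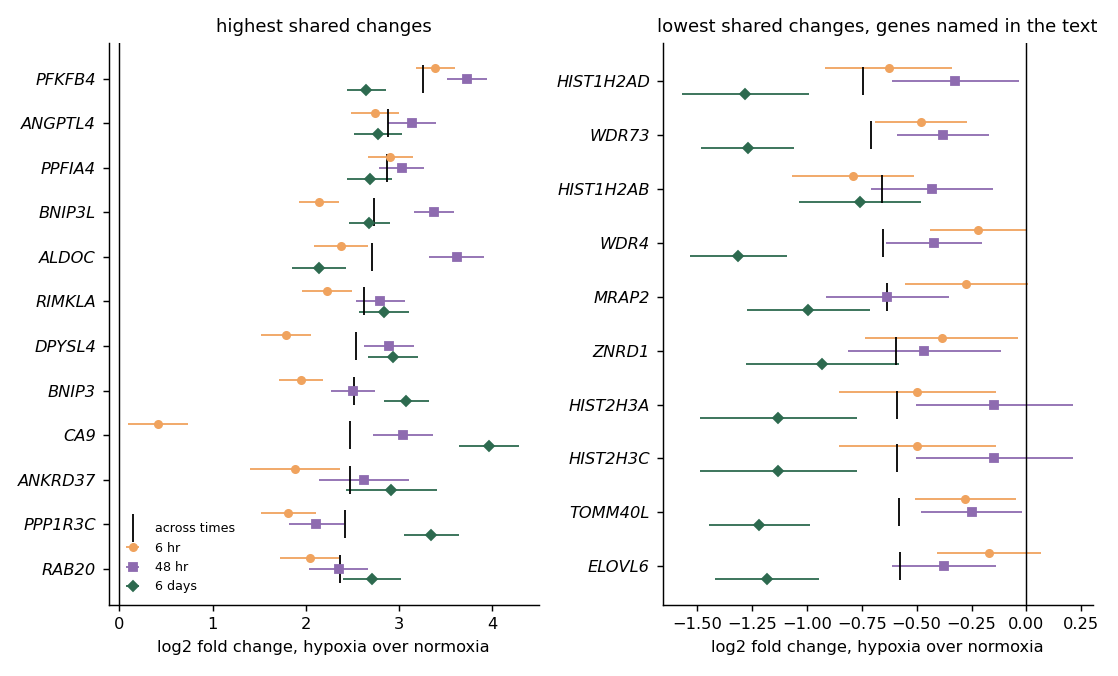
Log2 fold changes (x axis) of the 12 highest shared genes and of the lowest shared genes named in the text, at 6 hr, 48 hr and 6 days, with 95% intervals from limma, and across times as a black tick. The highest genes lie between 0.42 (CA9 at 6 hr) and 3.97 (CA9 at 6 days), and most of the lowest genes were furthest from 0 at 6 days.

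Ribosome production and DNA synthesis held more lower than higher genes. Of all tested genes 3.26% were shared lower and 10.4% shared higher. In ribosome biogenesis 9 of 50 tested genes were shared lower and 2 higher, at a median log2 fold change of -0.19. The lower count was 19 and 18 under quantile and trimmed-mean scaling. These scalings also raised the shared lower genes among all tested genes, from 389 to 910 and 817. POLR1E, another RNA polymerase I subunit, had 4.67 to 17.9 RPKM in hypoxia (median 16.7), against 8.83 to 23.2 RPKM in normoxia (median 20.2). It fell 1.40-fold (log2 -0.48 ± 0.09 SE, adjusted p = 0.0029). NOP16 fell 1.35-fold (log2 -0.44 ± 0.10 SE, adjusted p = 0.00736), with adjusted p = 0.0815 without the 6 days libraries. NIP7 fell 1.35-fold (log2 -0.43 ± 0.08 SE, adjusted p = 0.00224), with adjusted p = 0.0557 without the 48 hr libraries, and HEATR1 1.35-fold (log2 -0.44 ± 0.09 SE, adjusted p = 0.00473), with adjusted p = 0.093 without the 48 hr libraries and 0.071 without the 6 days libraries. In DNA replication 6 of 48 tested genes were shared lower and none higher, at a median of -0.23. The lower count was 13 and 14 under the same scalings, with the same rise among all tested genes. POLE2, a subunit of DNA polymerase epsilon, had 6.15 and 5.66 RPKM at 6 hr, 5.52 and 5.03 at 48 hr and 1.98 and 1.90 at 6 days in hypoxia, against 6.87 and 6.90, 7.52 and 7.09, and 4.15 and 3.77 RPKM at these times in normoxia. It fell 1.42-fold (log2 -0.50 ± 0.09 SE, adjusted p = 0.00247). ORC2, of the origin recognition complex, fell 1.26-fold (log2 -0.34 ± 0.07 SE, adjusted p = 0.00647), with adjusted p = 0.0699 without the 48 hr libraries and 0.0958 without the 6 days libraries, and GINS1, of the replicative helicase, 1.22-fold (log2 -0.28 ± 0.06 SE, adjusted p = 0.00317), with adjusted p = 0.0908 without the 48 hr libraries. FANCE, a Fanconi anaemia protein, fell 1.43-fold (log2 -0.52 ± 0.08 SE, adjusted p = 0.000682), and the pyrimidine enzyme UMPS 1.20-fold (log2 -0.26 ± 0.06 SE, adjusted p = 0.0113), with adjusted p = 0.135 without the 48 hr libraries. Mitosis had 1 shared lower gene of 50, nucleotide synthesis 3 of 29, and repair 2 lower and 1 higher of 36.

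Other large lists held few shared changes, where 10.4% of all tested genes were shared higher and 3.26% shared lower. Of 79 tested cytosolic ribosomal proteins 2 were shared higher, of 76 mitochondrial ribosomal proteins 1 was higher and 1 lower, and of 36 aminoacyl-tRNA synthetases 1 was higher and 1 lower. Complex I of the respiratory chain had 1 shared higher gene of 52, complexes II to V 2 of 58, and the TCA cycle 1 of 21. Under quantile and trimmed-mean scaling 7 and 7 mitochondrial ribosomal proteins were shared lower, and 0 and 0 cytosolic ones. Complex I then had 3 and 2 shared lower genes, complexes II to V 4 and 2, and the TCA cycle 1 and 1. Among all tested genes 910 and 817 were shared lower under these scalings. The complex I gene, NDUFB8, had 39.0 to 83.2 RPKM in hypoxia (median 65.5), against 26.9 to 40.04 RPKM in normoxia (median 36.9), and the ranges overlapped over all times but not within a time, as the sign rule requires. It rose 1.70-fold (log2 0.77 ± 0.10 SE, adjusted p = 0.000175). The complex IV assembly gene FAM36A, now called COX20, rose 1.38-fold (log2 0.47 ± 0.07 SE, adjusted p = 0.000672), and MRPL17 1.48-fold (log2 0.57 ± 0.10 SE, adjusted p = 0.00177). The TCA gene IDH2 rose 1.32-fold (log2 0.40 ± 0.08 SE, adjusted p = 0.00273), with adjusted p = 0.0573 without the 48 hr libraries. None of 16 reference genes was a shared change. Of 30 tested sterol and fatty acid genes 2 were shared higher, INSIG2 and SCD, and 1 lower; the desaturase gene SCD rose 1.39-fold (log2 0.47 ± 0.08 SE, adjusted p = 0.00109), with adjusted p = 0.0563 without the 48 hr libraries. The interferon list had 1 higher and 1 lower gene of 21, with a median of 0.01 that was -0.07 after quantile normalization.

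Other cell type lists also moved in part. In the fibroblast list 6 of 11 genes were tested and summed levels were 95.8 to 233 RPKM in hypoxia and 67.8 to 155 RPKM in normoxia. ACTA2, smooth muscle actin, was a shared change with 17.4 and 16.3 RPKM at 6 hr, 21.8 and 22.1 at 48 hr and 5.45 and 5.33 at 6 days in hypoxia, against 13.6 and 12.7, 14.8 and 16.8, and 3.42 and 4.27 RPKM at these times in normoxia. It rose 1.33-fold (log2 0.42 ± 0.06 SE, adjusted p = 0.000631). The erythroid list summed to 30.1 RPKM in library 4 and 0.644 to 2.78 RPKM in the other hypoxia libraries, against 0.354 to 0.620 RPKM in normoxia, and 1 of its 10 genes was tested. That gene, the globin HBA2, had 9.05 RPKM in library 4 and 0.474 to 1.83 RPKM in the other hypoxia libraries, against 0.127 to 0.328 RPKM in normoxia. It rose 3.16-fold (log2 1.66 ± 0.41 SE, adjusted p = 0.0131); without library 4 its log2 fold change was 1.19 (adjusted p = 0.00135), and its call was lost with adjusted p = 0.11 without the 48 hr libraries.

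The size of the shared changes grew with time for many genes. Among higher genes the median log2 fold change was 0.36 at 6 hr, 0.49 at 48 hr and 0.68 at 6 days, and 369, 754 and 1039 of the 1244 passed the test at the single times, where 3.39%, 9.24% and 23.9% of all tested genes did. At all 3 times 320 passed, and 128 passed at none. Among lower genes the medians were -0.22, -0.29 and -0.39, with 9, 137 and 284 of 389 past the threshold at the single times, where 0.201%, 2.89% and 18.3% of all tested genes were. At every time 5 lower genes passed, and 71 passed at none. Members were chosen on these same libraries, so passing more often than all tested genes was built in.

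Members were chosen on the same values that this test uses, so their shares are no independent comparison with all tested genes. The test of a difference in size between times passed for 2031 of the 11933 genes (17%), 372 of the 1244 higher genes (29.9%) and 45 of the 389 lower genes (11.6%). Of the 372, 321 changed most at 6 days, 50 at 48 hr and 1 at 6 hr, and of the 45, 44 changed most at 6 days. The count of 2031 was 3225 after quantile normalization. It was 951 and 897 without normoxia library 9 or 10, and 899 and 749 without hypoxia library 11 or 12, all of 6 days.

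**Figure D5:**
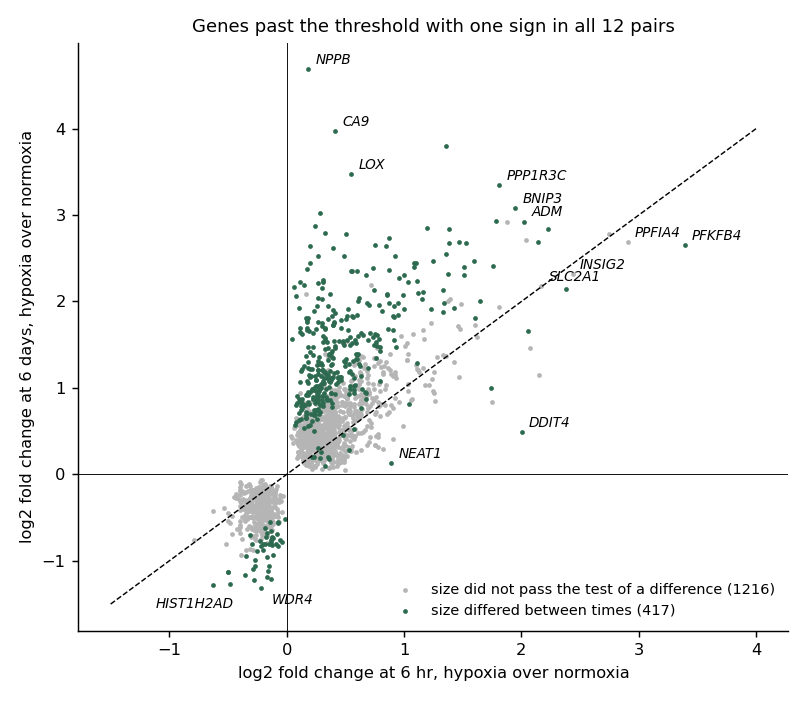
Log2 fold change at 6 days (y axis) against that at 6 hr (x axis) for the 1633 shared changes, with the line of equal size dashed; green points differed in size between times (417 genes, adjusted p under 0.05) and grey ones did not pass (1216 genes). The green points lie mostly above the line for higher genes and below it for lower genes, while DDIT4 and NEAT1 lie below it on the right.

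NPPB, CA9, LOX, S100A10, NGFR and HPCAL4 had the smallest p for such a difference among higher genes whose hypoxia mean reached 2 RPKM. S100A10, a partner of annexin, was under 0.27 RPKM in both hypoxia libraries at 6 hr and reached 4.51 and 4.95 RPKM at 6 days, against 0 to 0.188 RPKM in normoxia, where both 48 hr libraries were listed at 0. Its call (adjusted p = 0.00308) was lost with adjusted p = 0.0568 without the 48 hr libraries. HPCAL4, a neuronal calcium sensor, had 1.60 and 1.60 RPKM at 6 hr, 3.71 and 3.59 at 48 hr and 8.68 and 8.98 at 6 days in hypoxia, against 0.734 and 0.611, 0.611 and 0.589, and 0.945 and 1.05 RPKM at these times in normoxia, with log2 values of 0.84, 1.92 and 2.64. NGFR, a neurotrophin receptor, had 0.137 and 0.0903 RPKM at 6 hr, 0.477 and 0.364 at 48 hr and 7.09 and 6.92 at 6 days in hypoxia, against 0.0677 and 0.0671, 0.100 and 0.0885, and 1.14 and 1.07 RPKM at these times in normoxia; its call (adjusted p = 0.0182) was lost after quantile normalization (0.0647) and with adjusted p = 0.075 without the 48 hr libraries. Among lower genes the difference was clearest for WDR4, RTN4IP1, TOMM40L, CDCA7, WDR73 and WDR76, the last of which lost its call without any one of the 4 libraries of 6 days (adjusted p of 0.0566 to 0.0641). CDCA7, a chromatin factor of cycling cells, had 17.4 and 16.99 RPKM at 6 hr, 16.8 and 16.4 at 48 hr and 5.24 and 5.25 at 6 days in hypoxia, against 22.1 and 19.6, 21.9 and 21.5, and 11.2 and 11.8 RPKM at these times in normoxia, and log2 values of -0.27, -0.38 and -1.06. RTN4IP1, a mitochondrial protein, fell 1.45-fold (log2 -0.54 ± 0.13 SE, adjusted p = 0.0104), with adjusted p = 0.0547 without the 48 hr libraries and 0.0676 without the 6 days libraries, and TOMM40L 1.496-fold (log2 -0.58 ± 0.14 SE, adjusted p = 0.0111), with adjusted p = 0.0634 without the 6 days libraries.

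By the range of their log2 values over the times, the steadiest of the genes that rose at least 2-fold were DHRS13, SLC2A1, MAPK7, INSIG2, WSB1 and UNC119. DHRS13, a dehydrogenase of the short-chain family, had 6.57 and 5.62 RPKM at 6 hr, 8.69 and 7.29 at 48 hr and 9.18 and 8.86 at 6 days in hypoxia, against 2.77 and 2.65, 3.83 and 3.42, and 4.09 and 4.64 RPKM at these times in normoxia, and log2 values of 1.03, 1.04 and 0.97. MAPK7, the kinase ERK5, rose 2.24-fold (log2 1.16 ± 0.09 SE, adjusted p = 1.42e-06), at log2 1.10, 1.12 and 1.26. WSB1, a ubiquitin ligase adaptor, had 20.6 to 46.7 RPKM in hypoxia (median 24.7), against 8.20 to 20.7 RPKM in normoxia (median 9.81). It rose 2.32-fold (log2 1.21 ± 0.07 SE, adjusted p = 1.91e-07), at log2 1.24, 1.29 and 1.10. The lipid-binding chaperone gene UNC119 rose 2.20-fold (log2 1.14 ± 0.12 SE, adjusted p = 2.04e-05). A p that misses the threshold does not show that the sizes were equal: for SLC2A1 the 95% interval of the difference, 6 days minus 6 hr, was -0.30 to 0.31 on the log2 scale, and for WSB1 -0.49 to 0.22 on the log2 scale.

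Genes past the threshold across times that broke the sign rule included large late changes. COL6A1, a collagen subunit, had 1.12 and 0.957 RPKM at 6 hr, 1.78 and 2.20 at 48 hr and 6.68 and 6.61 at 6 days in hypoxia, against 0.854 and 0.979, 0.709 and 0.768, and 1.26 and 1.27 RPKM at these times in normoxia; 11 of 12 pairs were higher, and the call (adjusted p = 0.00619) was lost with adjusted p = 0.071 without the 48 hr libraries and 0.058 without the 6 days libraries. TXNIP, which blocks glucose uptake, had 5.51 and 7.28 RPKM at 6 hr, 37.9 and 33.4 at 48 hr and 146 and 141 at 6 days in hypoxia, against 7.23 and 5.401, 4.79 and 4.91, and 60.4 and 63.3 RPKM at these times in normoxia. Its libraries overlapped at 6 hr and 11 of 12 pairs were higher, with log2 values of 0.02, 2.75 and 1.21; the call (adjusted p = 0.0118) was lost with adjusted p = 0.12 without the 48 hr libraries and 0.0652 without the 6 days libraries. SFXN2, a mitochondrial carrier, was lower in 11 of 12 pairs, at log2 -0.10, -0.49 and -1.67, with adjusted p = 0.0766 without the 48 hr libraries and 0.124 without the 6 days libraries. Of 10 humanin-like MTRNR2L genes, nuclear copies of mitochondrial ribosomal RNA whose reads are hard to assign, 5 were called lower across times and none had one sign, with list medians of 0.40 at 6 hr, -0.92 at 48 hr and -1.48 at 6 days.

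Some genes were called in opposite directions at different times and so have no shared change. Comparing 48 hr with 6 days, 42 genes were called higher and then lower, and 8 the other way round. Comparing 6 hr with 6 days, the counts were 9 and 7. The cytokine gene LIF had 4.62 and 4.12 RPKM at 6 hr, 8.69 and 8.27 at 48 hr and 11.3 and 11.5 at 6 days in hypoxia, against 3.91 and 4.10, 3.89 and 3.85, and 13.7 and 13.8 RPKM at these times in normoxia, with log2 values of 0.11, 1.04 and -0.25. LONP1, the protease of the mitochondrial matrix, had 35.1 and 30.5 RPKM at 6 hr, 49.5 and 50.1 at 48 hr and 36.9 and 35.9 at 6 days in hypoxia, against 23.5 and 20.6, 30.7 and 29.4, and 45.4 and 48.1 RPKM at these times in normoxia, with log2 values of 0.56, 0.72 and -0.35. ARHGAP4 and the cold-inducible RNA-binding protein gene CIRBP had log2 values of 0.34, 0.84 and -0.69 and of 0.13, 0.57 and -0.30. All 4 passed the threshold as higher at 48 hr and as lower at 6 days.

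At the threshold itself the members were small changes. CLCC1 (log2 -0.16), MFAP1 (0.18) and ARID2 (0.19) were the 3 just inside, with adjusted p of 0.0498, 0.0496 and 0.0493, and they lost the call in 18, 21 and 21 of 24 alternative settings. TMEM128 (-0.23) and CCDC14 (-0.23) had one sign in all 12 pairs and lay just outside.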

How the data were processed

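Total RNA depleted of ribosomal RNA was sequenced on a SOLiD 5500xl instrument as 12 libraries, per the labels' protocols. The deposited values are RPKM per gene, made by the authors with Partek 6.6 on hg19, per the submitters' processing notes; the sources used here do not give the aligner or annotation. RPKM are not counts, so no count model was used. The precursor miRNA table, also deposited as RPKM, was used for depth and for the closing section.

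Genes with at least 1 RPKM in at least 2 libraries were fitted as log2(RPKM + 0.5) with limma 3.58.1 in R 4.3.3, with an intensity trend, time as a term, and two-sided Benjamini-Hochberg adjusted p over all 11933 tested genes (threshold 0.05). A fit of 6 group means gave the effect at each time and the F test between times. The 4 pairs of a time share libraries and are not independent. Tables and figures were made with Python 3.11.15, pandas 2.3.3 and matplotlib 3.10.9, and the fit was tested on simulated data. No deposited column was left unused.

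Promoters came from RefSeq (GRCh38.p14). Of 22446 symbols 18976 were current, 2461 older names and 1009 unmatched. The members and gene lists were chosen with earlier results of these data known. Named genes were the 12 highest and 12 lowest shared changes whose mean reached 2 RPKM in one oxygen level, up to 4 shared changes per list, the 6 higher and 6 lower genes that differed most between times, the 6 steadiest, the 4 highest and 4 lowest calls without one sign, 4 with opposite calls, index genes, and 3 on each side of the threshold. Not all are printed: some are not reported here, and 24 whose call was lost without 1 library are mostly left out. Alternatives were 2 pseudocounts, 2 filters, 2 scalings, no trend, 2 treatments of time, and leaving out each time and library.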

Additional observations from a re-analysis of the deposited data

Results flagged for a closer look

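Among 124 tested genes named above, the size of the hypoxia effect differed between the 3 times in 70 by limma's moderated F test, with p adjusted over all 11933 genes; 53 of these changed most at 6 days. Values are given as log2 fold changes at 6 hr, 48 hr and 6 days, followed by the adjusted p of the difference. In glycolysis they were 3.39, 3.73 and 2.65 for PFKFB4 (0.00172), 0.55, 1.16 and 1.84 for LDHA (0.00513) and 1.36, 2.35 and 2.55 for ENO2 (0.00064), so the first was largest at 48 hr and the others at 6 days. ALDOC also peaked at 48 hr (0.00144). PDK1 had 1.60, 2.27 and 1.81 (0.0115) and PDK3 0.95, 1.54 and 1.99 (0.00376). For the lactate exporter gene SLC16A3 the values were 1.43, 2.18 and 1.92 (0.0265), and the difference for CA9 had an adjusted p of 1.96e-05.

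Among glycogen genes GBE1 had 0.49, 1.40 and 2.52 (0.000288), PPP1R3C 1.81, 2.11 and 3.34 (0.00139), GYS1 0.71, 1.16 and 1.64 (0.00621) and STBD1 1.65, 1.35 and 2.01 (0.0413). Of the mitophagy receptors BNIP3 had 1.95, 2.51 and 3.08 (0.00295) and BNIP3L 2.14, 3.37 and 2.68 (0.00116), and GABARAPL1 had 0.34, 0.82 and 1.11 (0.0195). In the oxygen-sensing and dioxygenase lists EGLN1 had 1.34, 1.39 and 1.99 (0.0342) and KDM3A 1.33, 1.55 and 2.13 (0.0418). Collagen genes grew steadily, with 1.47, 2.30 and 2.69 for PLOD2 (0.00249), 1.25, 1.62 and 2.46 for P4HA2 (0.00732) and 0.74, 1.88 and 2.39 for LOXL2 (0.000691), and LOX and COL6A1 had adjusted p of 2.31e-05 and 0.000276.

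Secreted factors had 2.02, 2.06 and 2.92 for ADM (0.00718) and 2.06, 2.35 and 1.66 for STC2 (0.0113), and the natriuretic peptide gene NPPB had the smallest adjusted p, 1.37e-05. Other higher genes had 1.76, 2.70 and 2.41 for VLDLR (0.0112), 1.12, 1.13 and 2.10 for C7orf68 (0.00397), 2.23, 2.80 and 2.84 for RIMKLA (0.0443) and 1.79, 2.90 and 2.94 for DPYSL4 (0.0025), with 5.99e-05 for NDRG1, 0.000151 for HPCAL4, 0.000135 for NGFR and 4.24e-05 for S100A10. Stress and regulatory genes had 1.08, 1.65 and 2.44 for FOSL2 (0.00113), 1.04, 1.84 and 0.82 for ATF3 (0.0155), 0.76, 0.75 and 1.62 for DUSP5 (0.00531), 0.23, 1.41 and 0.50 for SESN2 (0.000688) and 0.51, 1.19 and 1.84 for CDKN1A (0.0044). DDIT4, H19 and NEAT1 had adjusted p of 0.000242, 0.000609 and 0.00113. HMOX1 had 0.39, 1.68 and 2.62 (0.000293), and the folding genes had 0.53, 0.84 and 1.92 for ERO1L (0.00161), 0.17, 0.33 and 0.92 for PDIA3 (0.00944) and 0.33, 0.25 and 1.18 for DNAJB1 (0.00278). The copies HSPA1A and HSPA1B had adjusted p of 0.0269 and 0.00515, and NDUFB8 had 0.0494.

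Among lower genes, WDR4 had -0.22, -0.42 and -1.31 (0.00166), WDR73 -0.48, -0.38 and -1.27 (0.00318), HIST1H2AD -0.63, -0.32 and -1.28 (0.0137), and HIST2H3A and HIST2H3C -0.50, -0.15 and -1.13 (0.0326 each). POLE2 had -0.21, -0.44 and -0.87 (0.013), POLR1E -0.20, -0.44 and -0.80 (0.0387) and HEATR1 -0.08, -0.54 and -0.69 (0.0149). The adjusted p was 0.00302 for CDCA7, 0.000609 for WDR76, 0.00247 for RTN4IP1, 0.00274 for TOMM40L, 0.00364 for ELOVL6, 0.0436 for MRAP2 and 0.0479 for STEAP3. Of the genes without a shared change it was 0.000144 for TXNIP, 0.000825 for SFXN2, 0.00031 for LIF, 0.00162 for LONP1, 0.00113 for ARHGAP4, 0.00334 for CIRBP and 0.0265 for CCDC14.

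Precursor miRNAs of the same 12 libraries lie outside the comparison above. The precursor hsa-mir-210 had 2.13 and 2.04 RPKM at 6 hr, 7.81 and 7.203 RPKM at 48 hr and 10.7 and 9.04 RPKM at 6 days in hypoxia, against 0 to 0.696 RPKM in normoxia. The precursor hsa-let-7a-2 had 3.51 to 10.04 RPKM in hypoxia, against 1.20 to 3.26 RPKM in normoxia. In both, the lowest hypoxia library was above the highest normoxia library. For hsa-let-7a-2 this gap was 3.51 RPKM in hypoxia library 4 against 3.26 RPKM in normoxia library 9, at few reads, and was not tested. At 6 hr library 4 (35.7 M reads) held fewer reads of it than normoxia library 1 (52.0 M reads), at 3.51 against 2.68 RPKM.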

How the results depend on the processing

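The count of higher genes across times, 1830, was 335 with no time term, 818 without the 48 hr libraries and 904 without the 6 days libraries, and 1304 to 2198 with 1 library left out. The 851 lower genes were 1773 after quantile normalization, 1687 after trimmed-mean centring, 1653 as the mean of the 3 times' contrasts, 17 with no time term, 1697 without 6 hr, 118 without 48 hr and 192 without 6 days, and 444 to 1370 with 1 library left out. The 1244 shared higher genes were 327 with no time term, 2079 without 6 hr (8 pairs) and 809 without 48 hr, and 1066 to 1693 with 1 library left out. The 389 shared lower genes were 910 after quantile normalization, 817 after trimmed-mean centring, 16 with no time term, 1555 without 6 hr, 115 without 48 hr and 183 without 6 days, and 300 to 1002 with 1 library left out. The 2031 genes whose change differed between times were 3225 after quantile normalization, and 749 to 3023 with 1 library left out. The mean of the 3 times' contrasts does not count differences between times as spread, and with it 2642 genes were higher. For the other settings the cause was not tested, apart from the fewer libraries of some. Glycolysis had 19 genes called higher across times in all leave-one-out fits, and the hypoxia markers 32 to 39, against 37 in all libraries. Of calls across times 68.3% were higher as deposited, 43.7% with quantile normalization and 48.1% with trimmed means.

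Of 149 genes that the naming rule gave, printed or not, 3131 values under 24 alternatives kept their sign and side of the threshold, 388 lost the call, 24 gained one and 6 turned sign. The sign of ARNT turned with quantile scaling (-0.030), trimmed-mean centring (-0.043) and without normoxia library 2 (-0.013); with 1 library left out its values ran up to 0.029, without normoxia library 1. Without the 48 hr libraries ARHGAP4 was at -0.18, CIRBP at -0.083 and LIF at -0.072. No paired analysis was possible because hypoxia and normoxia libraries share no library numbers. With 2 libraries a group and RPKM in place of counts, depth limits low genes most, and those under 1 RPKM in all but 1 library were not tested; the shift of the median gene under the scalings was under 0.1 on the log2 scale.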

Other observations

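Neighbouring genes were set against each other with RefSeq gene order, as a description without a test. Of 1199 shared higher genes whose next gene was tested, 157 (13.1%) had a next gene that was also a shared higher gene, against 10.4% of all placed genes. Of 380 shared lower genes 15 (3.95%) had such a neighbour, against 3.30% of all placed genes.

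Of 166 precursor miRNAs that reached the minimum of 1 RPKM in 2 libraries, among 939, 7 were higher in hypoxia in all 12 pairs and 0 were lower; these values were not tested. Besides hsa-mir-210 and hsa-let-7a-2 these were hsa-mir-10a (6.38 to 46.3 RPKM in hypoxia, against 2.16 to 8.84 RPKM in normoxia), hsa-mir-103-2 (4.01 to 12.4 RPKM in hypoxia, against 0.981 to 5.59 RPKM in normoxia), hsa-mir-149 (0.447 to 1.93 RPKM in hypoxia, against 0.371 to 1.10 RPKM in normoxia), hsa-mir-425 (1.63 to 7.97 RPKM in hypoxia, against 0.745 to 3.55 RPKM in normoxia) and hsa-mir-503 (0.849 to 2.37 RPKM in hypoxia, against 0 to 1.36 RPKM in normoxia). Their ranges overlapped over all times but not within a time, which is how they were picked. At such low values single reads and library depth weigh on the sign. For hsa-mir-149 at 6 days, hypoxia library 12 had 0.447 RPKM, against 0.377 and 0.371 RPKM in normoxia libraries 9 and 10. These values stand for the same number of reads, in libraries of 25.2 M, 29.9 M and 30.4 M reads.

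Among the shared changes 11 higher genes and 1 lower gene were short non-coding RNAs, which were counted and not named. The second alpha-globin gene HBA1, below the level for the test, had 0.0906 to 0.628 RPKM in hypoxia, against 0 to 0.0426 RPKM in normoxia, and library 4 was at 0.244 RPKM.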
